A study of Mus musculus with 18 samples.

Results

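Gene expression in the cortex of control mice was compared with that in the skull bone of control mice. The series holds 18 libraries of poly(A)-selected RNA in 6 groups of 3, from cortex and from skull after ischemic injury and from the controls of each tissue. The comparison was chosen by group: it takes the 3 libraries labelled as brain controls and the 3 labelled as skull controls, 6 of the 18, and every gene of the deposited count table. All animals were BALB/c mice. The brain controls came from brain cortex, and the skull controls from the interparietal bone, a flat bone at the back of the skull roof. The labels do not say whether the controls were operated on, whether a library is 1 animal or a pool, or whether a cortex and a skull library came from the same animal, so p-values measure the spread between libraries. The protocol describes all tissue as taken from ischemic and surrounding regions, with no separate wording for the controls. The day 2 groups of both tissues, taken 2 days after ischemic injury, were used for a second look at the same tissue contrast.

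The cortex is built of excitatory projection neurons and inhibitory interneurons, which signal mainly through glutamate and GABA, with astrocytes, myelin-forming oligodendrocytes, microglia and vessels sealed by the blood-brain barrier. A flat skull bone holds osteoblasts that lay down a matrix rich in type I collagen, osteocytes buried in it, osteoclasts that resorb it, and red marrow in which granulocytes, red cells, platelets and B cells are made. Skull marrow is known as a source of leukocytes for the meninges and the injured brain, so the difference between the control tissues is a baseline for the injury groups of the series. In whole-tissue RNA, a lower level from fewer cells of a type cannot be told apart from less RNA per cell.

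Total counts were 23673255, 27654269 and 25050532 in control cortex libraries 1, 2 and 3, and 14765111, 13398631 and 13807243 in control skull libraries 1, 2 and 3; values are given below in this order of libraries. Levels are CPM, counts scaled to a common library size after TMM, a method that balances libraries on the genes of middling difference. Fitted log2 differences between the groups are given ± their standard error. Log2 CPM correlated across genes at 0.987 to 0.993 between cortex libraries and at 0.948 to 0.985 between skull libraries. The haemoglobin genes took 0.0068 to 0.0074% of counts in control cortex, against 1.5 to 2.13% in control skull.

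The skull controls were less alike than the cortex controls. Of 10630 genes reaching 20 CPM in some library, 282 differed over 2-fold between the highest and lowest cortex library, against 1174 between the highest and lowest skull library; over 4-fold, the counts were 15 in cortex and 467 in skull. Of the 1174, 775 were among the 2229 genes called at least 2-fold higher in cortex, 34.8% of those. Another 190 were among the 2060 called at least 2-fold lower in cortex, 9.22% of those. The cause of this unevenness was not tested. The 12 genes of a pineal gland list, such as Tph1 and Asmt of melatonin synthesis and the homeobox gene Crx, were chosen after their values were seen. Their summed level was 8.74, 8.05 and 6.89 CPM in control cortex, against 14.3, 2600.0 and 996.0 CPM in control skull. Tph1 gave most of the sum in skull libraries 2 and 3, with 0.886, 0.562 and 0.1254 CPM in control cortex, against 6.93, 1493 and 569.5 CPM in control skull. Aanat, another enzyme of melatonin synthesis on the list, went the other way, with 1.22, 1.39 and 1.59 CPM in control cortex, against 0.21, 0.409 and 0.85 CPM in control skull, a log2 difference (cortex minus skull) of 1.51 ± 0.49 (adjusted p = 0.0281), a call lost with a library left out (adjusted p = 0.0645 without cortex library 2, 0.0776 without cortex library 3, 0.0801 without skull library 1 and 0.0727 without skull library 2). The summed level of 8 cerebellar genes, listed in the same way, was 56.5, 50.4 and 43.6 CPM in control cortex, against 222, 41.3 and 154 CPM in control skull. Skeletal muscle genes summed to 29.1, 38.8 and 32.5 CPM in control cortex, against 4760, 887 and 3240 CPM in control skull. Skull library 2 thus held most of the pineal transcripts, skull library 1 most of the muscle and cerebellar ones, and skull library 3 lay between them each time.

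Skull library 3 was close to a weighted sum of the other 2 skull libraries. With counts of library 1 and library 2 weighted by 0.603 and 0.364, 62.4% and 37.6% of the sum, the median squared deviation of library 3 over its sampling variance was 0.862 across genes, where sampling alone gives 0.455. The same fit gave 1.79 to 5.80 for the 15 libraries of the other groups. Among 2032 genes that differed at least 2-fold between skull libraries 1 and 2, library 3 lay between them in 95%, against 32.7 to 83.1% in the other groups. Whether the 3 control skull libraries are independent samples was not tested, and a call that was lost with a single library left out is given with the adjusted p values of those fits.

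**Figure D1:**
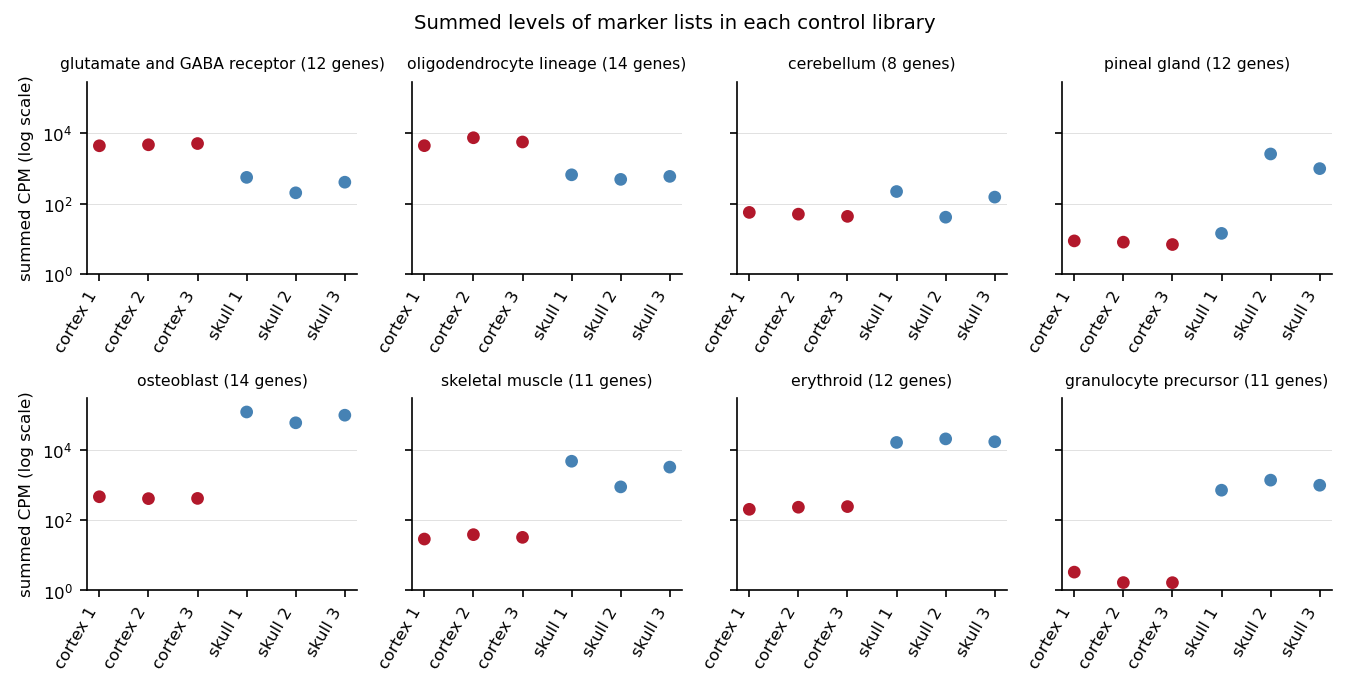
Summed CPM (log axis) of 8 marker lists in each of the 6 control libraries; red points are cortex libraries 1 to 3 and blue points skull libraries 1 to 3, with the number of genes of each list above its panel. The pineal sum was 2600.0 CPM in skull library 2 and 14.3 CPM in skull library 1, and skull library 3 lay between them in all 8 panels.

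Most of the transcriptome differed between the tissues. Of 18173 genes tested, 12891 were called, 70.9%, with 6277 (34.5%) higher and 6614 (36.4%) lower in cortex than in skull at an adjusted p below 0.05. Against a minimum of 2-fold, 7041 genes were called, 38.7% of those tested, 3238 (17.8%) higher and 3803 (20.9%) lower in cortex. The libraries of the 2 groups did not overlap for 13946 genes, 76.7%. The log2 difference, always cortex minus skull, had a median of −0.04 over all genes, quartiles of −1.14 and 0.89 and a median standard error of 0.19. Without skull library 3, 11653 genes were called, 5610 higher and 6043 lower, and 6386 by the 2-fold test.

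The large differences were mostly on the skull side. Among called genes, 123 were over 32-fold higher in cortex and 756 over 32-fold lower, by fitted difference. Beyond 1024-fold, the counts were 0 higher and 52 lower. Skull libraries held low but measurable levels of most neuronal transcripts, while many marrow, bone and muscle transcripts had few or no counts in cortex. The median skull level of the 14 general neuron genes was 7.36%, 4.21% and 6.43% of the cortex mean in skull libraries 1, 2 and 3, whereas the median cortex level of the 11 granulocyte precursor genes was 0.165% of the skull mean.

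**Figure D2:**
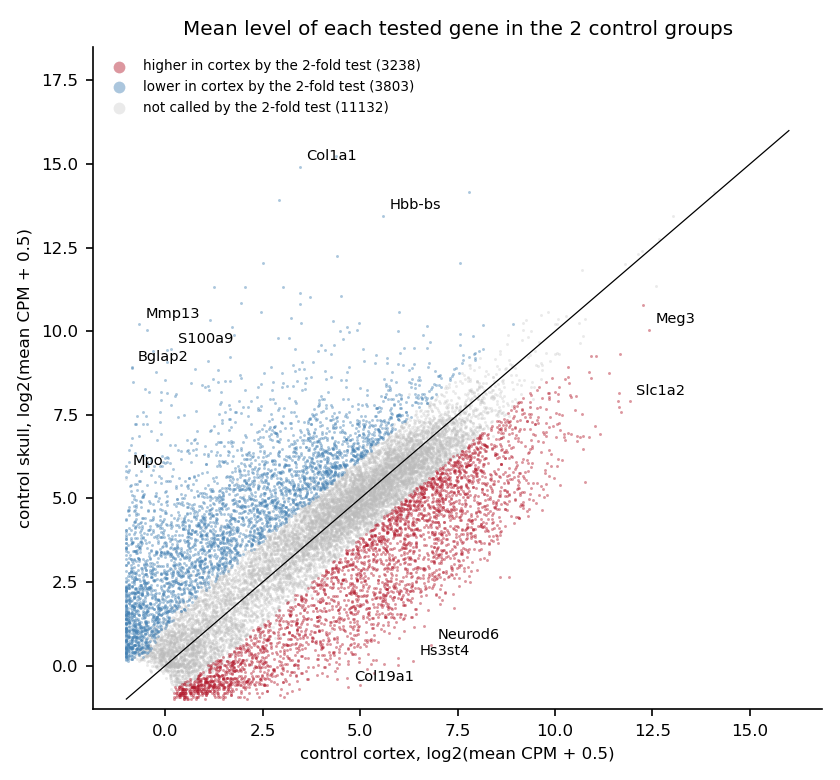
Mean level of each of the 18173 tested genes in control cortex (horizontal axis) and control skull (vertical axis), both as log2(mean CPM + 0.5), with the line of equal levels; red and blue points passed the 2-fold test as higher (3238) and lower (3803) in cortex and grey points did not. Marrow and bone genes such as Mpo and Bglap2 stand at the left edge with almost no counts in cortex, while cortex genes such as Slc1a2 keep a measurable level in skull.

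The 10 genes with the largest differences toward cortex, among called genes with at least 5 CPM and no overlap of libraries, were Nkx6-2, Pdyn, Col19a1, Dok6, Hs3st4, Cnih3, Rxfp1, Neurod6, Cntnap3 and Mog. Hs3st4 (chr7:123982869-124398989, plus strand, mm10), which encodes a sulfotransferase that modifies heparan sulfate, had 77.6, 88.6 and 79.4 CPM in control cortex, against 0.7, 0.546 and 0.566 CPM in control skull. Its log2 difference was 7.07 ± 0.14 (adjusted p = 1.07e-06), with every skull library below 1 CPM. Neurod6, a transcription factor of cortical projection neurons (chr6:55677822-55681263, minus strand), had 129.8, 122 and 85.6 CPM in control cortex, against 1.61, 0.409 and 1.06 CPM in control skull. Col19a1, a minor collagen that neurons make (chr1:24261890-24587472, minus strand), had 25.7, 24.8 and 24.8 CPM in control cortex, against 0.28, 0.0682 and 0.0708 CPM in control skull, a log2 difference of 7.43 ± 0.32 (adjusted p = 3.29e-06). Mog, a protein of the outer face of myelin, had 43.1, 86.5 and 57.4 CPM in control cortex, against 1.19, 0.136 and 0.708 CPM in control skull. Rxfp1, the receptor for relaxin, had 78.6, 24.0 and 18.2 CPM in control cortex, against 0.56, 0.136 and 0.354 CPM in control skull, with cortex library 1 well above the other 2, and its call was lost with limma voom (adjusted p = 0.0679). Against 1 to 3 counts over the skull group, Nkx6-2, a homeobox gene of oligodendrocytes, was 335-fold (95% counting interval 59.9 to 13200) higher in cortex, Dok6, an adaptor of receptor tyrosine kinases, 154-fold (95% counting interval 42.4 to 1270) and Cntnap3, a neuronal cell adhesion protein, 116-fold (95% counting interval 39.4 to 563); these intervals cover counting error only.

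The 10 genes with the largest differences toward skull came from muscle, bone, marrow and, in 1 case, the pineal list. Mmp13, the collagenase of bone remodelling (chr9:7272514-7283331, plus strand), had 0.0422, 0 and 0.334 CPM in control cortex, against 1058, 1339 and 1144 CPM in control skull, a log2 difference of -13.17 ± 0.70 (adjusted p = 1.51e-05). Tnn (tenascin W, chr1:160085029-160153580, minus strand), a matrix protein of bone and its surface, had 0.422, 0.0749 and 0.167 CPM in control cortex, against 1201, 845 and 1079 CPM in control skull. Lrrc15, a membrane protein of mesenchymal cells, had 0, 0.187 and 0 CPM in control cortex, against 409.6, 317 and 354 CPM in control skull. These 3 genes were even over the skull libraries. Bglap2, which encodes osteocalcin, had 0, 0.15 and 0 CPM in control cortex, against 742, 176 and 538 CPM in control skull. Mpo, the peroxidase of neutrophil granules, had no count in cortex and 39.9, 74.2 and 52.8 CPM in control skull, at least 1380-fold lower in cortex with 3 counts over the 3 libraries taken as the lowest level that can be stated. Tubb1, the platelet tubulin, had no count in cortex either and was even in skull, at 19.96, 19.9 and 21.5 CPM, at least 506-fold lower in cortex.

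The other 4 genes of that rank were uneven in skull. The muscle genes Mylk2, Tnnt3 and Myoz1 had 105, 12.1 and 70.5 CPM, 785, 131 and 503 CPM and 78.6, 17.2 and 51.3 CPM in control skull, each lowest in skull library 2, with at most 0.167 CPM in a cortex library. With limma voom the calls of Mylk2 and Tnnt3 were lost (adjusted p = 0.0826 and 0.0587). Lhx4, a homeobox gene of the pituitary and pineal gland, had no count in cortex and 0.7, 98.4 and 41.9 CPM in control skull. Its skull counts lay mostly in libraries 2 and 3, where the pineal sum was high: the adjusted p was 0.0286, and the call was lost with most single libraries left out (adjusted p = 0.0663 without cortex library 1, 0.0507 without cortex library 2, 0.0548 without cortex library 3, 0.176 without skull library 2 and 0.0674 without skull library 3). The part of pineal and muscle tissue in these values was not tested.

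**Figure D3:**
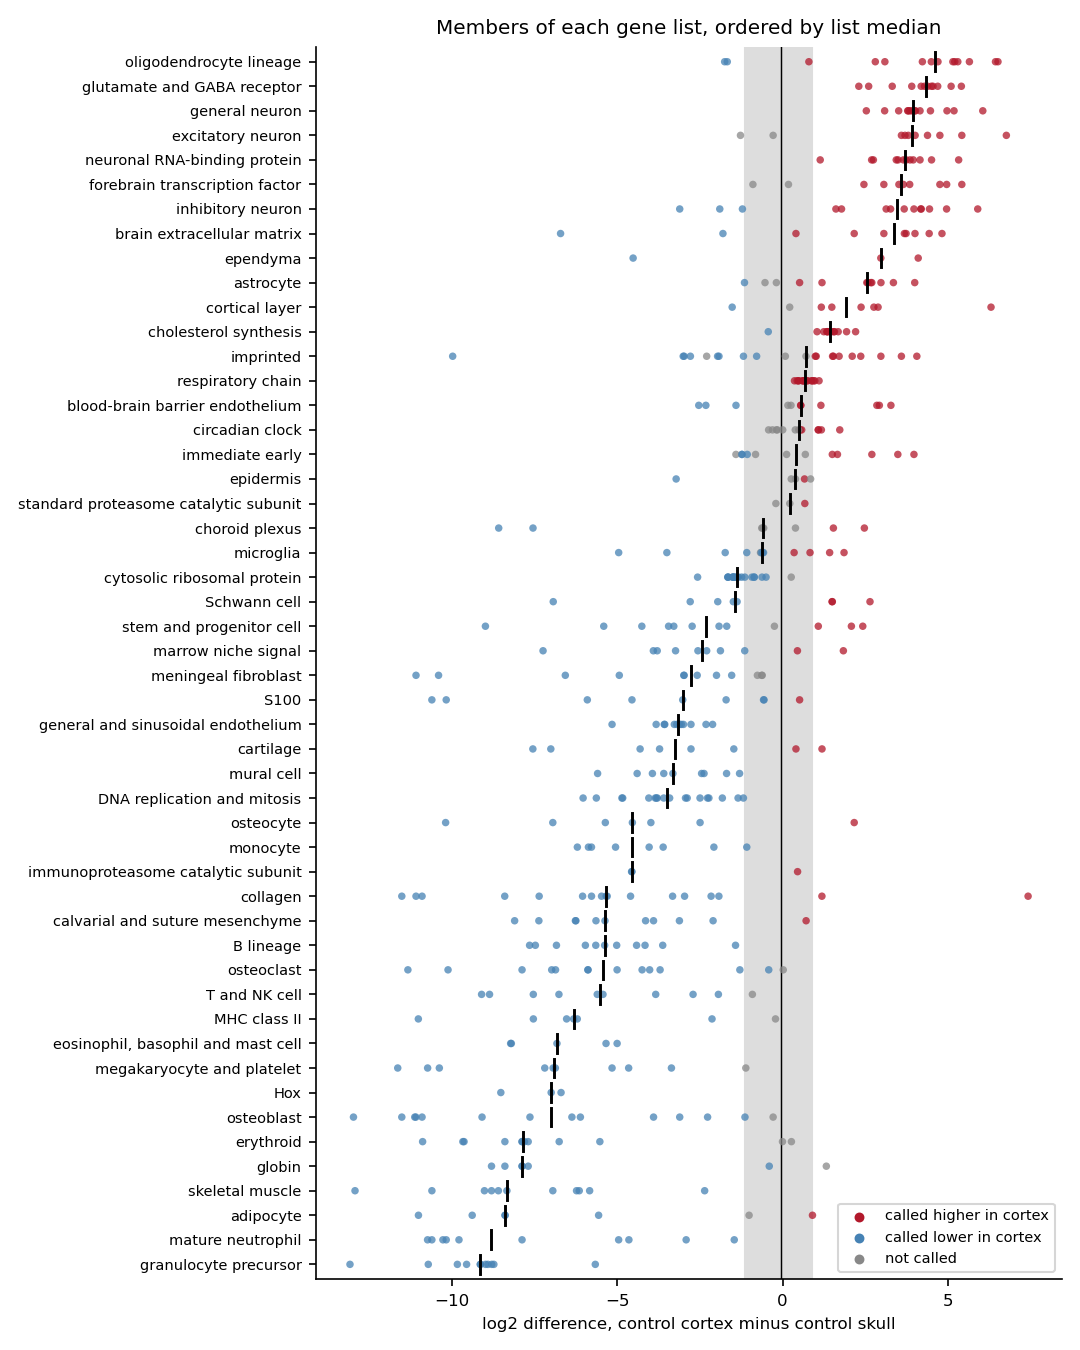
Log2 difference (cortex minus skull, horizontal axis) of each tested member of the gene lists, 1 row per list and 1 point per gene, coloured by call. Neuronal and myelin lists lie to the right of 0, and bone, marrow and muscle lists to the left, many beyond −5.

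General neuron genes were all higher in cortex, 14 of 14, with a median log2 difference of 3.95 where the median over all genes was −0.04. Snap25, the t-SNARE of synaptic vesicle fusion (chr2:136713453-136782428, plus strand), had 2368, 3499 and 3783 CPM in control cortex, against 257, 318 and 271 CPM in control skull. Its log2 difference was 3.51 ± 0.21 (adjusted p = 1.08e-05), and the skull libraries held 8.76% of the cortex mean. Syt1, the calcium sensor of vesicle release, averaged 1868 ± 128 CPM in control cortex and 115 ± 12.8 CPM in control skull. Map2, a microtubule protein of dendrites, averaged 1514 ± 58.2 CPM in control cortex and 105 ± 9.51 CPM in control skull. These 3 genes varied little between skull libraries. Here and below, the ± of a mean CPM is the SD, with n = 3 libraries in each group. The ± of a log2 difference is the standard error of the fit throughout. Nefl and Nefm, the light and medium neurofilament chains, had 14.4, 0.75 and 9.98 CPM and 11.6, 0.409 and 5.17 CPM in control skull, lowest in skull library 2; 32.8% and 19.2% of their exon bases overlap another gene, and with the counting strand not given their reads could be split. Nrgn, a calmodulin-binding protein of spines, differed by 3.80 ± 0.27 (adjusted p = 2.32e-05).

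Excitatory neuron genes were higher in cortex in 8 of 10, with a median of 3.91. Slc17a7, the vesicular glutamate transporter of cortical neurons (chr7:45163949-45176142, plus strand), had 973, 1021 and 1044 CPM in control cortex, against 65.6, 22.3 and 57.5 CPM in control skull. Its difference was 4.39 ± 0.43 (adjusted p = 0.000191). Slc17a6, the transporter that prevails in subcortical excitatory neurons, was not called: it had 50.3, 34.1 and 34.7 CPM in control cortex, against 3.15, 207 and 78.1 CPM in control skull, and the high skull values fell in libraries 2 and 3, as the pineal sum did. Camk2a, the kinase of the postsynaptic density, differed by 3.70 ± 0.72 (adjusted p = 0.00419) and Tbr1, a deep layer transcription factor, by 5.42 ± 0.66 (adjusted p = 0.000515).

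Inhibitory neuron genes were higher in cortex in 11 of 14 and lower in 3, with a median of 3.47. Gad1 and Gad2, the enzymes that make GABA, had 400.0, 421 and 493 CPM in control cortex, against 47.8, 5.87 and 29.9 CPM in control skull, and 194, 199 and 207 CPM in control cortex, against 20.8, 0.955 and 11.4 CPM in control skull. Sst, the somatostatin peptide of an interneuron class, averaged 169 ± 9.95 CPM in control cortex and 2.83 ± 2.18 CPM in control skull. The 3 lower genes were Dlx5, Dlx6 and Pvalb. Dlx5 had 3.42, 3.86 and 3.3 CPM in control cortex, against 28.3, 29.3 and 34.0 CPM in control skull, a difference of -3.11 ± 0.14 (adjusted p = 3.7e-06), while its paralog Dlx2 had 5.06, 6.55 and 4.18 CPM in control cortex, against 0.14, 0.0682 and 0.283 CPM in control skull, a difference of 4.96 ± 0.45 (adjusted p = 6.99e-05); Dlx5 and Dlx6 are known in osteoblasts as well as in interneurons. Pvalb, the calcium buffer of fast-spiking interneurons and of fast muscle fibres, had 50.2, 85.3 and 90.2 CPM in control cortex, against 471, 62.0 and 309.9 CPM in control skull. Its groups overlapped, it was highest in the skull libraries with most muscle transcript, and its call, at an adjusted p of 0.0496, was lost with most single libraries left out (adjusted p = 0.156 without cortex library 1, 0.105 without cortex library 2, 0.101 without cortex library 3, 0.154 without skull library 1 and 0.108 without skull library 3).

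The 12 glutamate and GABA receptor genes were all higher in cortex, with a median of 4.34. Gria2, an AMPA receptor subunit (chr3:80681450-80802835, minus strand), had 803, 844 and 868 CPM in control cortex, against 59.8, 3.34 and 34.0 CPM in control skull, a difference of 4.69 ± 0.96 (adjusted p = 0.00516). Every one of the 12 was lowest in skull library 2, where the median level was 1.09% of the cortex mean, against 7.80% and 5.61% in skull libraries 1 and 3. Of the forebrain transcription factors 8 of 10 were higher in cortex (median 3.59), among them Tbr1, described above. Neurod1 and Pax6 were not called, at 15.0 ± 1.99 CPM in control cortex and 28.0 ± 15.0 CPM in control skull and at 10.02 ± 2.16 CPM in control cortex and 8.85 ± 2.82 CPM in control skull. Neurod1 was highest in skull library 2, at 44.6 CPM.

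Of 8 cortical layer genes, 6 were higher in cortex (median 1.93). Fezf2, which specifies layer 5 neurons that project below the cortex, had 44.2, 33.8 and 28.3 CPM in control cortex, against 0.63, 0.341 and 0.354 CPM in control skull. Cux2, of the upper layers, averaged 113 ± 17.7 CPM in control cortex and 15.3 ± 10.2 CPM in control skull. Foxp2, of layer 6, was lower in cortex, at 11.1, 19.1 and 24.9 CPM in control cortex, against 52.5, 52.6 and 53.4 CPM in control skull, with the 3 skull libraries almost equal. Cux1 was not called, at 104 ± 25.8 CPM in control cortex and 90.03 ± 6.2 CPM in control skull. The 12 neuronal RNA-binding protein genes were all higher in cortex (median 3.70), among them Rbfox3, the NeuN antigen, at 282, 341 and 384 CPM in control cortex, against 32.6, 2.05 and 21.7 CPM in control skull, and Elavl4, at 157, 165 and 160.3 CPM in control cortex, against 11.1, 2.12 and 8 CPM in control skull.

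The promoters of 2 genes described above, Gria2 and Gad2, hold an exact match to the core of RE1, the element bound by the repressor REST, which is known to keep neuronal genes silent in other tissues. The motif was searched as AGCACC, then any 2 bases, then GGACAG, on both strands in the 250 bases before each RefSeq gene start. It stood in 0.0444% of 27025 promoters, and in 9 of the 12642 tested genes with a promoter. Of those 9, 8 passed the 2-fold test as higher in cortex (Fam163b, Fbll1, Gad2, Gria2, Hrh3, Ogdhl, Robo2 and Scamp5), and Lca5 was not called; none of 2705 genes called lower by that test had it. Of all 12642, 2207 were higher by that test, 17.5%. Most neuronal list genes with a promoter lacked the motif. It stood in 1 of 11 inhibitory neuron genes and 1 of 5 glutamate and GABA receptor genes. None of 8 general neuron, 7 excitatory neuron and 11 neuronal RNA-binding protein genes held it. A match is a description of the sequence and not evidence of binding. The stretches are shown because they set the neuronal silencer core of an excitatory and an inhibitory gene side by side, from RefSeq on GRCm38.p6, at chr3:80802956-80803055 (minus strand) for Gria2 and chr2:22622114-22622213 (plus strand) for Gad2, with the match in capitals.
Gria2: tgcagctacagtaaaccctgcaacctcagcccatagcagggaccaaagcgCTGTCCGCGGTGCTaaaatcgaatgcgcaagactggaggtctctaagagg
Gad2: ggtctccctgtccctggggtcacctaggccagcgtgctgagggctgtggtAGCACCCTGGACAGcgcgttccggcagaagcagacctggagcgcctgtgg
The match in Gria2 is in the reverse orientation, so the capitals read as the reverse complement of the motif as spelled.

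Astrocyte genes were higher in cortex in 9 of 12, with a median of 2.56. Slc1a2, the main glutamate transporter of astrocytes, had 4018, 3610 and 3953 CPM in control cortex, against 365, 97.3 and 262 CPM in control skull, a difference of 3.998 ± 0.50 (adjusted p = 0.000598). Mlc1, a protein of astrocyte endfeet, had 201, 168 and 140.5 CPM in control cortex, against 27.1, 4.71 and 18.1 CPM in control skull. All 9 higher genes were lowest in skull library 2. Gja1, which encodes connexin 43 of astrocyte and osteoblast junctions, was lower in cortex, at 298, 202 and 178 CPM in control cortex, against 579.7, 421 and 508 CPM in control skull. Gjb6 and Fgfr3 were not called, at 54.8 ± 11.2 CPM in control cortex and 62.4 ± 3.64 CPM in control skull and at 97.5 ± 17.8 CPM in control cortex and 141 ± 48.4 CPM in control skull.

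Oligodendrocyte lineage genes were higher in cortex in 12 of 14, with a median of 4.601. Mbp, a main protein of central myelin, had 1709, 2910 and 2240 CPM in control cortex, against 159, 78.1 and 128 CPM in control skull. Cortex library 2 was the highest for Mbp, Mobp and Mog. Opalin, found in myelin of mammals, had 21.6, 32.5 and 20.2 CPM in control cortex, against 0.84, 0 and 0 CPM in control skull. The 2 lower genes were Pdgfra and Cspg4, at 54.6 ± 15.1 CPM in control cortex and 174 ± 25.8 CPM in control skull and at 15.5 ± 3.21 CPM in control cortex and 52.2 ± 4.08 CPM in control skull, which mark oligodendrocyte precursors in brain and also mesenchymal and mural cells elsewhere. Among 8 Schwann cell genes 3 were higher and 5 lower in cortex (median -1.43), where 34.5% of all tested genes were higher and 36.4% lower. Pmp22, a protein of peripheral myelin, was lower, at 24.9 ± 4.28 CPM in control cortex and 173 ± 10.9 CPM in control skull. Drp2, Cdh19 and Egr2 were higher in cortex, by 2.65 ± 0.25, 1.498 ± 0.31 and 1.505 ± 0.49. The call of Egr2 was lost with a library left out (adjusted p = 0.0778 without cortex library 1, 0.061 without cortex library 3, 0.0625 without skull library 2 and 0.0921 without skull library 3).

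Of 12 microglia genes, 4 were higher in cortex, 7 lower and 1 not called, with a median of -0.62. Over all tested genes, 34.5% were higher and 36.4% lower. P2ry12, the purinergic receptor of resting microglia, had 58.4, 52.5 and 57.2 CPM in control cortex, against 25.4, 15.7 and 21.6 CPM in control skull, and Siglech 15.8, 15.2 and 16.8 CPM in control cortex, against 6.16, 1.98 and 5.03 CPM in control skull. Both were higher in cortex, by 1.42 ± 0.17 (adjusted p = 0.000284) and 1.86 ± 0.36 (adjusted p = 0.00306). Tmem119 and Olfml3 were lower in cortex, at 23.3, 16.7 and 16.2 CPM in control cortex, against 229.7, 196 and 211 CPM in control skull for Tmem119 and 12.8 ± 3.21 CPM in control cortex and 399 ± 31.6 CPM in control skull for Olfml3; Tmem119 is known as a product of osteoblasts too. Csf1r, the receptor that monocytes, macrophages and osteoclasts share with microglia, averaged 84.7 ± 6.54 CPM in control cortex and 179 ± 13.9 CPM in control skull. Fcrls had 6.54, 5.92 and 6.48 CPM in control cortex, against 23.0, 16.9 and 23.2 CPM in control skull, a difference of -1.74 ± 0.17 (adjusted p = 8.97e-05). Sall1, a transcription factor of microglia, was not called: its skull values of 2.8, 74.1 and 31.6 CPM were uneven, against 22.2, 24.8 and 21.3 CPM in cortex. Cx3cr1 was higher by 0.35 ± 0.12 (adjusted p = 0.0387), a call lost with a library left out (adjusted p = 0.0913 without cortex library 1, 0.0898 without cortex library 3, 0.0688 without skull library 1, 0.0756 without skull library 2 and 0.0963 without skull library 3).

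Endothelial genes differed by list. All 12 general and sinusoidal endothelial genes were lower in cortex, with a median of -3.16. Pecam1, a junction protein of all endothelium, had 17.8, 18.9 and 18.51 CPM in control cortex, against 190.2, 252 and 219 CPM in control skull, and Stab1, a scavenger receptor of sinusoids, had 15.0, 9.77 and 14.4 CPM in control cortex, against 186, 186 and 184 CPM in control skull. Of the 11 blood-brain barrier genes 6 were higher, 3 lower and 2 not called (median 0.55). Over all tested genes, 34.5% were higher and 36.4% lower. By the 2-fold test 3 barrier genes were higher and 3 lower, where 17.8% and 20.9% of all tested genes were. Mfsd2a, the barrier's lipid transporter, averaged 15.0 ± 1.19 CPM in control cortex and 1.54 ± 0.63 CPM in control skull (SD, n = 3 each), a difference of 3.28 ± 0.31 (adjusted p = 7.58e-05). Slco1c1, a thyroid hormone transporter, differed by 2.93 ± 0.38 (adjusted p = 0.000672). The efflux pumps Abcb1a and Abcg2, found in marrow cells as well, were lower in cortex, at 24.3 ± 2.11 CPM in control cortex and 64.5 ± 0.54 CPM in control skull and at 16.9 ± 3.38 CPM in control cortex and 84.3 ± 5.49 CPM in control skull. Claudin 5, encoded by Cldn5, had 26.9, 28.7 and 27.9 CPM in control cortex, against 21.6, 23.9 and 24.5 CPM in control skull and did not pass the test (adjusted p = 0.0507). Slc2a1, the barrier's glucose transporter, was higher by 0.55 ± 0.18 (adjusted p = 0.0288), a call lost with a library left out (adjusted p = 0.0692 without cortex library 1, 0.0759 without cortex library 2, 0.0524 without cortex library 3 and 0.095 without skull library 3).

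All 9 mural cell genes were lower in cortex (median -3.32). Acta2, the smooth muscle actin, had 6.41, 6.1 and 6.14 CPM in control cortex, against 252, 365 and 287 CPM in control skull, whereas Rgs5, a marker of pericytes, had 135, 176 and 178 CPM in control cortex, against 456, 346 and 403 CPM in control skull. Of 12 meningeal fibroblast genes, 9 were lower and 3 not called (median -2.78). Lum and Col3a1, of fibrous matrix, had 2.4, 1.35 and 1.88 CPM in control cortex, against 2810, 2315 and 2535 CPM in control skull, and 8.95, 4.75 and 7.56 CPM in control cortex, against 18090, 12740 and 15550 CPM in control skull. The 3 not called, Ptgds, Slc22a6 and Slc6a13, are transporters or enzymes typical of the leptomeninges, and their groups overlapped: Ptgds averaged 671 ± 258 CPM in control cortex and 1029 ± 344 CPM in control skull, and the 3 genes differed by -0.62 ± 0.35, -0.76 ± 0.35 and -0.63 ± 0.31. Of 8 choroid plexus genes 2 were higher, 2 lower and 4 not called (median -0.59), where 34.5% of all tested genes were higher and 36.4% lower. Ttr and Enpp2 were higher by 2.47 ± 0.42 and 1.54 ± 0.17, calls that were lost with all 18 libraries in one fit (adjusted p = 0.182 and 0.0853). Aqp1, also a red cell water channel, was lower, at -8.59 ± 0.23, and Otx2, also of the pineal list, had 1.05, 72.1 and 28.9 CPM in control skull and was not called with limma voom (adjusted p = 0.292). Clic6, Folr1, Kcnj13 and Kl differed by -0.63 ± 0.57, -0.57 ± 0.66, -0.61 ± 0.95 and 0.39 ± 0.34. The 3 tested ependymal genes held 2 higher, Foxj1 and Ccdc153, at under 4 CPM, and Rarres2 lower, at 3.41 ± 1.25 CPM in control cortex and 78.5 ± 14.7 CPM in control skull.

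Osteoblast genes were lower in cortex in 13 of 14, with a median of -7.01. Col1a1 and Col1a2, the chains of type I collagen (chr11:94936224-94953042, plus strand for Col1a1), had 14.7, 7.38 and 9.53 CPM in control cortex, against 39980, 20070 and 32890 CPM in control skull, and 28.8, 14.8 and 17.3 CPM in control cortex, against 52350, 23830 and 40820 CPM in control skull. The differences were -11.52 ± 0.51 (adjusted p = 4.48e-06) and -10.91 ± 0.54 (adjusted p = 6.92e-06), and skull library 2 was the lowest of the 3 for both. Sparc, osteonectin, averaged 219.6 ± 39.6 CPM in control cortex and 18220 ± 5852 CPM in control skull. Ibsp, bone sialoprotein, had 640.1, 736 and 677 CPM in control skull and Sp7, the osterix transcription factor, 202, 155 and 188 CPM; cortex averaged under 1 CPM for both. Alpl, alkaline phosphatase of mineralization, had 5.23, 4.12 and 5.47 CPM in control cortex, against 345, 343 and 342 CPM in control skull. These 3 genes were chosen after their values were seen. They were even over the skull libraries, unlike Col1a1, Col1a2 and Bglap2. Of the 13 lower genes, 10 were highest in skull library 1.

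Of the osteoblast genes, the master regulator Runx2 and Spp1 (osteopontin) hold an exact Runx motif, AACCACA, in the 250 bases before the start; Runx2 had 14.01, 15.8 and 13.7 CPM in control cortex, against 232, 206 and 213 CPM in control skull, and Spp1 3.42, 2.92 and 3.68 CPM in control cortex, against 2166, 1419 and 1891 CPM in control skull. The motif, on either strand, stood in 4.46% of all promoters and in 2 of the 8 osteoblast genes with a promoter in the table. It stood in 3 of 9 T and NK cell genes, and in none of 8 osteocyte genes with a promoter. Both stretches are shown since Runx2 encodes a protein of the family that binds it, from RefSeq on GRCm38.p6 at chr17:44814659-44814758 (minus strand) for Runx2 and chr5:104434932-104435031 (plus strand) for Spp1, with the match in capitals.
Runx2: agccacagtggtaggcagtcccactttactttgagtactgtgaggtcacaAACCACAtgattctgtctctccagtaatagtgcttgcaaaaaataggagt
Spp1: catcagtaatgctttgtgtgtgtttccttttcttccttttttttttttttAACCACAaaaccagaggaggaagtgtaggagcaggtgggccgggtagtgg

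Of 7 osteocyte genes, 6 were lower in cortex and 1 higher (median -4.54). Dmp1, a matrix protein of osteocytes, had 1.69, 1.16 and 1.88 CPM in control cortex, against 69.4, 56.2 and 69.0 CPM in control skull, and Sost, the Wnt inhibitor sclerostin, had 0.0422, 0 and 0 CPM in control cortex, against 2.24, 3.21 and 1.91 CPM in control skull. Ptprz1 was higher in cortex by 2.17 ± 0.38 (adjusted p = 0.00253); in brain it is a receptor phosphatase of astrocytes and precursors. Osteoclast genes were lower in 13 of 14 (median -5.45). Ctsk, the collagen-cleaving cathepsin, had 4.56, 9.17 and 7.19 CPM in control cortex, against 934, 849 and 875 CPM in control skull, and Acp5, tartrate-resistant phosphatase, had 0.127, 0.299 and 0.334 CPM in control cortex, against 299, 277 and 299 CPM in control skull. The skull libraries stood close together for both. Car2, the carbonic anhydrase of osteoclasts and of oligodendrocytes, was not called, at 129, 162 and 150.2 CPM in control cortex, against 152, 143 and 140.4 CPM in control skull.

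Of 11 calvarial and suture genes, 10 were lower in cortex (median -5.37). Prrx1, a homeobox gene of limb and skull mesenchyme, had 12.4, 11.2 and 10.4 CPM in control cortex, against 457, 489 and 464 CPM in control skull, and Alx4, mutated in defects of the skull roof, had 3.12, 1.65 and 1.17 CPM in control cortex, against 101, 98.3 and 98.2 CPM in control skull. Axin2, a target of Wnt signalling and a marker of suture stem cells, was higher in cortex, at 28.5, 27.6 and 29.2 CPM in control cortex, against 18.98, 15.3 and 17.8 CPM in control skull, a difference of 0.71 ± 0.12 (adjusted p = 0.00117). Of 8 cartilage genes 6 were lower and 2 higher (median -3.25). Acan, aggrecan, had 4.81, 3.74 and 4.01 CPM in control cortex, against 69.3, 38.9 and 57.6 CPM in control skull, and Comp 0.38, 0.262 and 0.167 CPM in control cortex, against 70.9, 29.5 and 55.1 CPM in control skull. Sox9 was higher in cortex by 1.19 ± 0.18 (adjusted p = 0.000729), being a transcription factor of astrocytes as well as of chondrocytes, and Hapln1 by 0.40 ± 0.15 (adjusted p = 0.0451), a call lost with a library left out (adjusted p = 0.116 without cortex library 1, 0.0545 without cortex library 2, 0.085 without cortex library 3, 0.101 without skull library 2 and 0.149 without skull library 3).

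Granulocyte precursor genes were all lower in cortex, 11 of 11, with a median of -9.14, or -8.99 with genes that had no count in cortex set at their bound. Ngp and Ltf, of secondary granules, had 0.591, 0.337 and 0.543 CPM in control cortex, against 273, 487 and 357 CPM in control skull, and 0.591, 0.599 and 0.0836 CPM in control cortex, against 172, 338 and 231 CPM in control skull. Elane, neutrophil elastase, chosen for its promoter, had 0, 0 and 0.209 CPM in control cortex, against 19.3, 45.2 and 34.3 CPM in control skull. All 11 were highest in skull library 2 and between the others in library 3. Of the mature neutrophil genes 10 of 10 were lower (median -8.84), 9 of them highest in skull library 2. S100a9, a subunit of calprotectin (chr3:90692632-90695721, minus strand), had 0.971, 0.487 and 0.376 CPM in control cortex, against 534, 881 and 718 CPM in control skull, a difference of -10.18 ± 0.43 (adjusted p = 4.49e-06). Retnlg had 44.2, 76.8 and 49.6 CPM in control skull and 2 counts over the cortex group, a ratio of 2120-fold (95% counting interval 587 to 17500).

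The granule genes Mpo, Elane and Prtn3 and also Mmp8 hold a motif of the PU.1 type, GAGGAAGT, in the 250 bases before the start, 4 of 11 precursor genes where 2.44% of all promoters hold it on either strand. It stood in 1 of 9 mature neutrophil genes and 1 of 7 monocyte genes with a promoter. Among other lists it stood in 1 of 7 megakaryocyte and platelet genes and 1 of 10 blood-brain barrier genes. It also stood in 1 of 8 osteoblast genes, Spp1, whose stretch above holds it in small letters. PU.1 is known as a master regulator of myeloid cells. The 3 stretches are shown for the primary granule enzymes, from RefSeq on GRCm38.p6, at chr11:87793534-87793633 (plus strand) for Mpo, chr10:79886177-79886276 (plus strand) for Elane and chr10:79879522-79879621 (plus strand) for Prtn3, with the match in capitals.
Mpo: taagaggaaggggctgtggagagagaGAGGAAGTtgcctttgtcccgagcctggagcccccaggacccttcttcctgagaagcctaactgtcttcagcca
Elane: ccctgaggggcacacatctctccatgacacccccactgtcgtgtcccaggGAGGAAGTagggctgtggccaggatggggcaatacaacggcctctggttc
Prtn3: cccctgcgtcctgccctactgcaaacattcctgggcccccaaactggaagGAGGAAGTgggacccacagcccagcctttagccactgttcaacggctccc

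Eosinophil, basophil and mast cell genes were lower in 5 of 5 tested (median -6.83, or -5.34 at the bounds), with Cpa3, a mast cell protease, at 0.0844, 0.0749 and 0.1254 CPM in control cortex, against 33.7, 27.8 and 29.0 CPM in control skull. All 8 monocyte genes were lower (median -4.54), led in level by Lyz2, lysozyme, at 10.2, 9.7 and 8.9 CPM in control cortex, against 689, 751 and 696 CPM in control skull. The megakaryocyte and platelet genes were lower in 9 of 10 (median -6.91). Pf4, platelet factor 4, had 0.506, 0.487 and 0.501 CPM in control cortex, against 83.1, 61.9 and 76.8 CPM in control skull. B lineage genes were lower in 11 of 11 (median -5.38) and T and NK cell genes in 9 of 10 (median -5.52, or -5.15 at the bounds). Cd79a and Cd79b, of the B cell receptor complex, had 22.5, 20.1 and 18.8 CPM and 15.3, 15.1 and 16.4 CPM in control skull, below 1 CPM in cortex and even over the skull libraries. Cd4 was not called, at 5.13 ± 4.28 CPM in control cortex and 9.67 ± 0.992 CPM in control skull.

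Erythroid genes were lower in cortex in 10 of 12, with a median of -7.84. Hbb-bs, adult beta globin (chr7:103826534-103828096, minus strand), had 48.1, 47.5 and 47.0 CPM in control cortex, against 10140, 12820 and 10720 CPM in control skull, a difference of -7.88 ± 0.17 (adjusted p = 1.07e-06). Slc4a1, the anion exchanger of the red cell membrane, had 0.169, 0.187 and 0.167 CPM in control cortex, against 143, 153 and 148 CPM in control skull, and Alas2, the enzyme that starts haem synthesis, 2.87, 2.36 and 2.76 CPM in control cortex, against 440.1, 778 and 575 CPM in control skull. Cortex libraries were within 1 CPM of each other for all these but Hbb-bs, which stood at 47.0 to 48.1 CPM. Tfrc, the transferrin receptor, and Epor, the erythropoietin receptor, were not called, at 146 ± 20.9 CPM in control cortex and 121 ± 13.8 CPM in control skull and at 6.22 ± 2.34 CPM in control cortex and 6.24 ± 1.74 CPM in control skull; both are used by cells other than red cell precursors. The near-identical globin copies Hba-a1 with Hba-a2 and Hbb-bs with Hbb-bt share reads, so the split within each pair is uncertain. Of 7 globin family genes 6 were lower in cortex (median -7.88), and neuroglobin, Ngb, was not called at 2.22 ± 1.35 CPM in control cortex and 0.884 ± 0.336 CPM in control skull.

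A GATA motif, AGATAA, bound by GATA factors of the red cell lineage, stood in 4 of the 10 erythroid genes with a promoter (Hbb-bs, Alas2, Epb42 and Epor), and in 10.3% of all promoters, on either strand. Epor, which was not called, holds it as well. The share was no smaller in the list of eosinophils, basophils and mast cells, where 4 of 7 promoters held it. The stretches of Hbb-bs and Alas2 are shown as the leading globin and haem genes of skull, from RefSeq on GRCm38.p6, at chr7:103828079-103828178 (minus strand) for Hbb-bs and chrX:150547281-150547380 (plus strand) for Alas2, with the match in capitals. In Alas2 the capitals read as the reverse complement of the motif.
Hbb-bs: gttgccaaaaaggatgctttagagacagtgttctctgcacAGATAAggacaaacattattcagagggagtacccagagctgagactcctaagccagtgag
Alas2: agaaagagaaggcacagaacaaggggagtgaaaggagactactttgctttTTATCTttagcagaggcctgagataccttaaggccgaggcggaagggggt

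The stem and progenitor list held 8 lower, 3 higher and 1 not called of 12 (median -2.33). Runx1, the transcription factor of definitive blood formation, had 1.44, 0.337 and 1.21 CPM in control cortex, against 43.4, 44.5 and 38.1 CPM in control skull. The 3 higher genes were Hlf, Flt3 and Kit, at 235 ± 30.3 CPM in control cortex and 43.7 ± 2.45 CPM in control skull, at 12.9 ± 1.53 CPM in control cortex and 3.05 ± 0.992 CPM in control skull and at 48.9 ± 21.1 CPM in control cortex and 23.1 ± 6.92 CPM in control skull; all are known in neurons too. The call of Kit was lost with a library left out (adjusted p = 0.0644 without cortex library 1, 0.0635 without skull library 2 and 0.082 without skull library 3). Cd34 was not called, at 82.3 ± 20.7 CPM in control cortex and 97.6 ± 4.02 CPM in control skull. Of 10 marrow niche signals 8 were lower and 2 higher (median -2.43). Cxcl12, the chemokine that holds stem cells and granulocytes in marrow, had 56.6, 65.6 and 58.3 CPM in control cortex, against 391, 304 and 369.7 CPM in control skull, and Csf1, the macrophage growth factor, 22.7, 19.3 and 21.2 CPM in control cortex, against 108, 101 and 102 CPM in control skull. Tnfsf11, the osteoclast factor RANKL, had 5.32, 10.2 and 5.8 CPM in control skull and 3 counts over the cortex group. The 2 higher were Thpo, by 1.84 ± 0.23 (adjusted p = 0.000304), and Kitl, by 0.45 ± 0.16 (adjusted p = 0.0419), a call lost with a library left out (adjusted p = 0.0751 without cortex library 2, 0.12 without cortex library 3, 0.0908 without skull library 2 and 0.101 without skull library 3).

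Skeletal muscle genes were lower in cortex in 11 of 11 (median -8.34). Myh4, a myosin of fast fibres, had 1.48, 1.05 and 0.669 CPM in control cortex, against 622, 28.4 and 390.3 CPM in control skull, and Ckm, muscle creatine kinase, 0, 0.225 and 0.0836 CPM in control cortex, against 279.5, 43.4 and 209.8 CPM in control skull. Skull library 1 was highest and library 2 lowest for all 11, and with limma voom Myh4 and Ckm were not called (adjusted p = 0.143 and 0.107). Adipocyte genes were lower in 5 of 7 (median -8.40, or -5.72 at the bounds), with Fabp4, also of vessels, at 0, 0 and 0.1254 CPM in control cortex, against 101, 90.5 and 99.8 CPM in control skull and Adipoq at 3.15, 0.75 and 2.55 CPM in control skull and no count in cortex. Pparg was higher by 0.90 ± 0.26 (adjusted p = 0.0163), a call lost with a library left out (adjusted p = 0.0513 without cortex library 3), and Retn was not called at 0.449 ± 0.165 CPM in control cortex and 0.911 ± 0.449 CPM in control skull. Of the 5 tested epidermal genes 1 was higher, 1 lower and 3 not called (median 0.39). Over all tested genes, 34.5% were higher and 36.4% lower. Perp was lower, at 4.95 ± 1.21 CPM in control cortex and 46.2 ± 10.6 CPM in control skull. Krt10 was higher by 0.66 ± 0.19 (adjusted p = 0.0165). The call of Krt10 was lost with a library left out (adjusted p = 0.0514 without cortex library 2 and 0.0597 without skull library 3). Krt1 averaged 3.06 ± 1.53 CPM in control cortex and 1.7 ± 0.304 CPM in control skull, and Dsp and Trp63 differed by 0.26 ± 0.74 and 0.39 ± 0.41. The 3 tested Hox genes, Hoxb4, Hoxd4 and Hoxd8, were lower in cortex, at up to 3.08 CPM in skull and at most 1 count over the cortex group.

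The E-box CAGCTG, of the kind bound by MyoD, the muscle determination factor, stood in 6 of the 10 muscle genes with a promoter (Acta1, Ckm, Myh4, Mylpf, Atp2a1 and Des), where 12.8% of all promoters hold it. It reads the same on both strands. It also stood in 4 of 7 megakaryocyte and platelet genes, 3 of 6 mural cell genes and 3 of 8 osteoblast genes with a promoter. Stretches are shown for Ckm and Myh4, whose values are given above, from RefSeq on GRCm38.p6, at chr7:19410844-19410943 (plus strand) for Ckm and chr11:67237695-67237794 (plus strand) for Myh4, with the match in capitals.
Ckm: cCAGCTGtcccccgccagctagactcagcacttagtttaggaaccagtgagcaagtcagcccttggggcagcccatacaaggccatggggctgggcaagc
Myh4: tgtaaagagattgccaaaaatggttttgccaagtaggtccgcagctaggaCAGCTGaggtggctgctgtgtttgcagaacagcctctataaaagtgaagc

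The matrix genes divided by tissue. Of 17 collagen genes 15 were lower in cortex (median -5.34), and the 2 higher were Col19a1, described above, and Col25a1, a membrane collagen of neurons, by 1.19 ± 0.37 (adjusted p = 0.0273), a call lost with a library left out (adjusted p = 0.071 without cortex library 2, 0.0791 without cortex library 3 and 0.0848 without skull library 3). Col5a2 averaged 7.61 ± 4.61 CPM in control cortex and 2582 ± 603 CPM in control skull. Of 10 brain matrix genes 8 were higher (median 3.38). Bcan, brevican of perineuronal nets, had 227, 230.2 and 221 CPM in control cortex, against 40.9, 10.98 and 29.2 CPM in control skull, and Tnr, tenascin R, 138, 169.6 and 172 CPM in control cortex, against 12.9, 1.23 and 8 CPM in control skull. Tnc and Vcan, the tenascin and proteoglycan that mesenchyme also makes, were lower, at 13.5, 6.48 and 5.43 CPM in control cortex, against 1055, 708 and 909.9 CPM in control skull and at 26.8 ± 1.58 CPM in control cortex and 93.6 ± 30.04 CPM in control skull. Within the tenascins, Tnr thus stood on the cortex side and Tnc and Tnn on the skull side, by 4.44 ± 0.72, -6.72 ± 0.46 and -12.19 ± 0.48.

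Genes of growth and protein synthesis were lower in cortex. All 18 replication and mitosis genes were lower, with a median of -3.51. Mki67, the Ki-67 antigen of cycling cells, had 2.28, 3.26 and 2.34 CPM in control cortex, against 119, 144 and 130.0 CPM in control skull, and Pcna, the sliding clamp that non-cycling cells also carry, 38.1, 37.6 and 39.1 CPM in control cortex, against 82.5, 93.9 and 84.6 CPM in control skull. Of 20 cytosolic ribosomal protein genes 19 were lower and Rps2 was not called (median -1.38). Rpl4 and Rplp0 had 458, 443 and 406 CPM in control cortex, against 787, 784 and 792 CPM in control skull, and 88.4, 79.4 and 72.0 CPM in control cortex, against 446, 508 and 471 CPM in control skull; these genes have many processed copies, which makes their counts uncertain. The 15 respiratory chain genes were all higher in cortex, with a median of 0.66, and none passed the 2-fold test. Atp5b, of the ATP synthase, had 913, 950.5 and 959.8 CPM in control cortex, against 560.0, 566 and 541 CPM in control skull, and Uqcrc1, of complex III, 232, 229 and 232 CPM in control cortex, against 107, 121 and 124 CPM in control skull. Of the 12 cholesterol synthesis genes 11 were higher (median 1.42). Hmgcs1, which makes HMG-CoA, had 270.0, 275 and 261 CPM in control cortex, against 75.5, 68.1 and 67.0 CPM in control skull, and Fdft1, which makes squalene, 88.9, 87.0 and 85.6 CPM in control cortex, against 21.6, 38.8 and 28.9 CPM in control skull.

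Of 7 class II antigen presentation genes 6 were lower in cortex (median -6.32, or -6.21 at the bounds). Cd74, the invariant chain, had 1.44, 1.57 and 2.3 CPM in control cortex, against 165, 89.9 and 139 CPM in control skull, and H2-Aa no count in cortex and 16.4, 7.64 and 15.8 CPM in control skull. H2-DMa was not called, at 10.2 ± 0.663 CPM in control cortex and 11.9 ± 0.256 CPM in control skull. The immunoproteasome subunits Psmb8 and Psmb9 were lower, at -4.56 ± 0.27 and -4.57 ± 0.22, while Psmb10 was higher by 0.45 ± 0.11 (median of the 3 -4.56). Of their standard counterparts, Psmb7 was higher by 0.67 ± 0.09, and Psmb5 and Psmb6 were not called, at 0.22 ± 0.13 and -0.20 ± 0.10 (median of the 3 0.22). Of 9 tested S100 genes 8 were lower in cortex (median -3.02). S100b, the glial calcium-binding protein, was the higher one, yet by only 0.52 ± 0.11, at 99.2, 119.7 and 120.2 CPM in control cortex, against 83.7, 72.2 and 81.3 CPM in control skull.

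Of 21 imprinted genes, 10 were higher in cortex, 8 lower and 3 not called (median 0.71). Over all tested genes, 34.5% were higher and 36.4% lower. The noncoding Meg3 and Rian, expressed from the maternal chromosome, had 6321, 5146 and 4882 CPM in control cortex, against 891, 1257 and 1024 CPM in control skull, and 942, 922 and 910.5 CPM in control cortex, against 232, 348 and 267 CPM in control skull. Snrpn and Nap1l5 were higher by 4.06 ± 0.14 and 3.60 ± 0.23. H19, also a maternal noncoding RNA, had 1.05, 0.337 and 0.209 CPM in control cortex, against 438, 645 and 539 CPM in control skull, a difference of -9.98 ± 0.57 (adjusted p = 2.07e-05), and its neighbour Igf2 averaged 0.769 ± 0.0679 CPM in control cortex and 6.1 ± 1.41 CPM in control skull. Grb10, Cdkn1c, Igf2r, Plagl1, Sgce and Mest were lower, at -2.79, -3.01, -1.92, -1.97, -1.18 and -0.79. The call of Mest was lost with a library left out (adjusted p = 0.107 without cortex library 2, 0.0848 without cortex library 3, 0.0863 without skull library 1 and 0.0866 without skull library 3). Dlk1, Nnat and Peg10 were not called, at -2.30 ± 1.203, 0.08 ± 0.82 and 0.71 ± 0.30. Of these, 34.1%, 64.5% and 30.7% of the exon bases of Snrpn, Igf2 and Cdkn1c overlap another gene.

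Of 13 clock genes 6 were higher in cortex and 7 not called (median 0.49), where 34.5% of all tested genes were higher and 36.4% lower. By the 2-fold test 1 clock gene was higher, where 17.8% of all tested genes were. Cry2, a repressor of the clock, had 117, 121 and 132 CPM in control cortex, against 31.6, 43.7 and 36.2 CPM in control skull. Dbp, a clock output gene, was not called at 33.0, 34.3 and 30.6 CPM in control cortex, against 17.6, 68.0 and 35.2 CPM in control skull, and Nr1d1 at 86.1, 83.2 and 84.1 CPM in control cortex, against 70.0, 159.6 and 110.1 CPM in control skull; in both, skull library 2 was the highest skull library and skull library 1 the lowest. Per1 ran the other way, at 125, 26.5 and 94.2 CPM in control skull. The differences of Per1, Per3, Cry1, Npas2 and Nr1d2, not called either, were -0.16 ± 0.52, -0.19 ± 0.22, 0.38 ± 0.23, 0.49 ± 0.41 and 0.00 ± 0.10. Of 12 immediate early genes 5 were higher, 3 lower and 4 not called (median 0.41), where 34.5% of all tested genes were higher and 36.4% lower. Arc, of active synapses, had 219, 166 and 239.8 CPM in control cortex, against 22.6, 1.77 and 15.4 CPM in control skull, and Egr1 272, 245 and 376 CPM in control cortex, against 79.9, 107 and 95.7 CPM in control skull. Fos had 43.2, 21.8 and 34.6 CPM in control cortex, against 77.7, 78.3 and 77.2 CPM in control skull, a call lost with all 18 libraries in one fit (adjusted p = 0.0719), and Dusp1 and Ier2 were lower with it, at -1.23 ± 0.28 and -1.07 ± 0.23. Fosb, Jun, Junb and Nr4a1 were not called, at -0.82 ± 0.43, -1.41 ± 0.56, 0.12 ± 0.21 and 0.69 ± 0.53. Transcripts of the Y-linked genes Ddx3y, Eif2s3y, Kdm5d and Uty were present in all 6 libraries at 20.7 CPM or more, with 2 of the 4 called lower in cortex, Ddx3y at -0.50 ± 0.09 and Uty at -0.31 ± 0.11 (median -0.23). The call of Uty was lost with a library left out (adjusted p = 0.0827 without cortex library 1, 0.126 without cortex library 2, 0.0744 without skull library 1 and 0.109 without skull library 3).

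For 30 pairs of related genes, levels were compared per kilobase of exon within each library, on the CPM scale. The pairs were chosen with earlier results of these data known, so the counts of pairs below depend on that choice. In 15 pairs the first gene was higher and the second lower in cortex; in 7 both were higher; in 4 only the first was called, higher, and in 4 only the second, lower. In 15 pairs the leading gene changed between the tissues. Ptbp2 and Ptbp1, the neuronal and general splicing repressors, had 15.2 and 4.82 CPM per kilobase in control cortex, against 6.89 and 26.7 in control skull. Pfn2 and Pfn1, the profilins that bind actin, had 155 and 42.2 CPM per kilobase in control cortex, against 37.9 and 108 in control skull, and Ldhb and Ldha, the lactate dehydrogenase subunits, 304 and 85.5 CPM per kilobase in control cortex, against 47.3 and 105 in control skull. Tubb3 and Tubb6, beta tubulins, had 148 and 1.38 CPM per kilobase in control cortex, against 9.27 and 27.1 in control skull.

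Other pairs of that kind were signalling genes. Gnao1 and Gnai2, inhibitory G protein subunits, had 60.7 and 41.1 CPM per kilobase in control cortex, against 5.55 and 84.3 in control skull. Dock3 and Dock2, exchange factors for Rac, had 16.9 and 0.307 CPM per kilobase in control cortex, against 0.961 and 2.37 in control skull, and Rac3 and Rac2 themselves 8.01 and 0.529 CPM per kilobase in control cortex, against 5.24 and 24.5 in control skull, with Rac3 not called and Rac2 lower, at -5.53 ± 0.37 (adjusted p = 2.92e-05). Pcsk1 and Furin, proprotein convertases, had 10.9 and 2.89 CPM per kilobase in control cortex, against 0.43 and 7.82 in control skull. In each of these the gene that led in cortex gave way to its partner in skull.

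In the other 15 pairs the same gene led in both tissues, the first in 12 and the second in 3. Snap25 led its general counterpart in both: Snap25 and Snap23 had 474 and 5.29 CPM per kilobase in control cortex, against 41.5 and 22.8 in control skull, though Snap23 was lower in cortex, at -2.11 ± 0.16 (adjusted p = 2.88e-05). Ckb and Ckm, brain and muscle creatine kinase, had 381 and 0.0353 CPM per kilobase in control cortex, against 112 and 61.0 in control skull. Aldoa, of many tissues, led the brain aldolase in both: Aldoc and Aldoa had 195 and 378 CPM per kilobase in control cortex, against 24.8 and 219 in control skull. Eno1, Aldoa, Ldha and the beta thymosins have processed copies, so their levels are uncertain. The calls of Atp2b4 (adjusted p = 0.051 without skull library 3), Itpr1 (adjusted p = 0.0501 without skull library 3) and Elavl1 (adjusted p = 0.105 without cortex library 2, 0.1 without cortex library 3, 0.086 without skull library 1, 0.103 without skull library 2 and 0.0908 without skull library 3) were lost with a library left out.

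**Figure D4:**
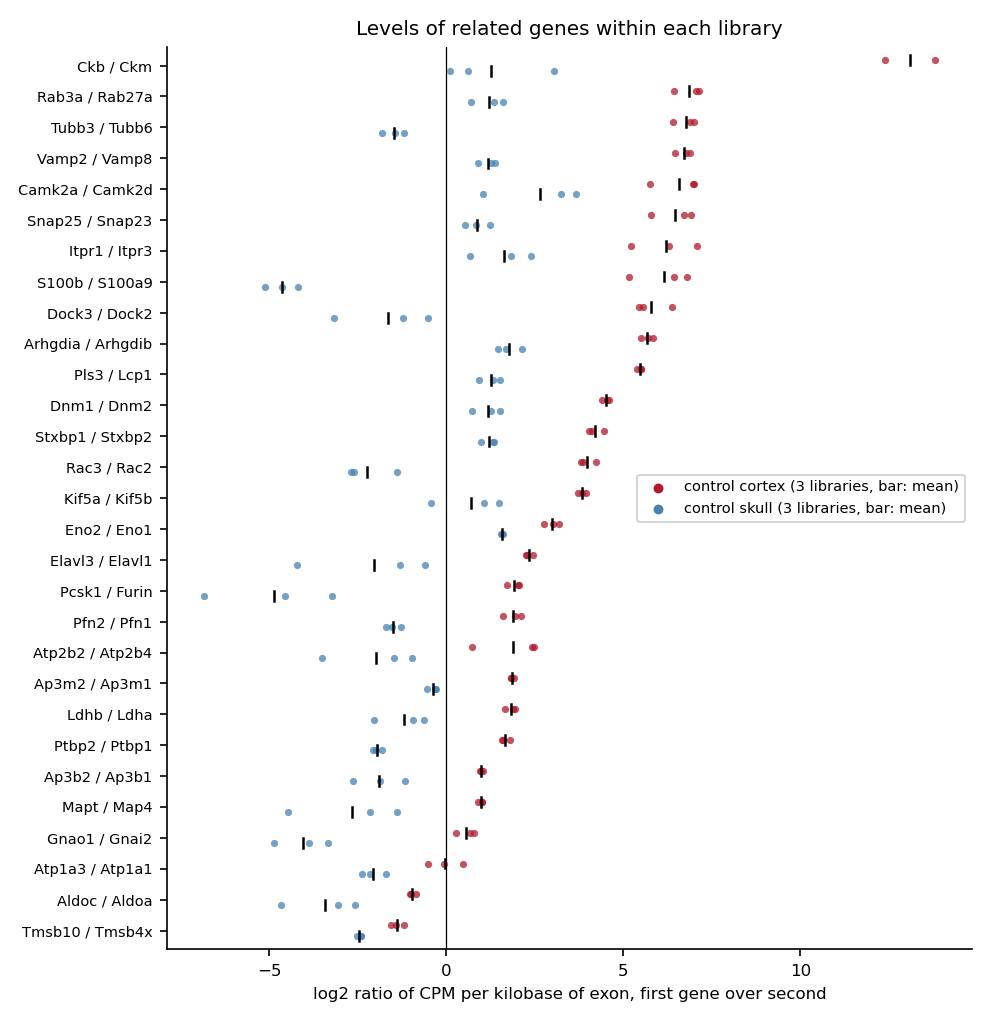
Log2 ratio of CPM per kilobase of exon between the genes of 29 of the 30 pairs, first over second, in each control cortex library (red) and control skull library (blue), with a bar at the mean of each group; 1 cortex library had no Ckm count and is not drawn for that pair. In 14 of these the group means stand on opposite sides of 0, with the first gene leading in cortex.

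Among genes not called, 251 had a mean of at least 100 CPM and a 95% interval of the log2 difference within −0.5 to 0.5. The 8 with the narrowest interval were Mark3, Hdac2, Ik, Nsd3, Eif3h, Mllt6, Hnrnpr and Rbbp4, mostly genes of chromatin, splicing and translation. Of these, Mark3, Ik, Nsd3 and Rbbp4 were called under some alternative run, and the rest under none. A like level also rests on the scaling factors: upper quartile factors moved the median log2 difference to -0.144, against -0.035 as reported. Hdac2, a histone deacetylase, averaged 106 ± 2.25 CPM in control cortex and 104 ± 2.36 CPM in control skull, with an interval of −0.13 to 0.21. Eif3h, a translation initiation subunit, averaged 127 ± 4.46 CPM in control cortex and 124 ± 0.423 CPM in control skull, with an interval of −0.13 to 0.21.

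The same tissue contrast was tested in the day 2 groups, 6 libraries that the control comparison did not use, though these tissues were injured. Of 17772 genes tested 12348 were called, 69.5%, 6176 (34.8%) higher and 6172 (34.7%) lower in cortex. Of 6102 genes called higher in control cortex and tested at day 2, 5122 were called higher again and 40 lower. Of 6360 called lower, 5122 were called lower again and 78 higher. Of genes passing the 2-fold test in controls, 3026 of 3120 higher ones and 3239 of 3587 lower ones were called in the same direction at day 2. The day 2 calls here had no 2-fold minimum, and 6 and 20 genes were called in the opposite direction. Across 17383 genes tested in both, the log2 differences had a Pearson correlation of 0.878 and a Spearman correlation of 0.912; genes are not independent replicates. Among list genes, 394 of 440 called in controls were called in the same direction at day 2, 89.5%, and 8 in the opposite one.

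Neuronal genes differed by more at day 2 than in controls, and for Gria2 and Slc17a7 the day 2 skull libraries were below control skull libraries 1 and 3. CPM were scaled separately in the 2 comparisons. The median difference of the general neuron list was 5.41 at day 2, against 3.95 in controls, and that of the receptors 6.15, against 4.34. Gria2 had 826, 485 and 671 CPM in day 2 cortex, against 0.753, 4.32 and 1.34 CPM in day 2 skull; control skull had 59.8, 3.34 and 34.0 CPM. Slc17a7 had 735, 736 and 617 CPM in day 2 cortex, against 2.4, 4.92 and 4.41 CPM in day 2 skull, where control skull had 65.6, 22.3 and 57.5 CPM. The differences between the day 2 and control contrasts were not tested.

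The list genes called in opposite directions included the microglia genes Fcrls, Trem2 and Aif1. Fcrls had 61.9, 64.8 and 52.9 CPM in day 2 cortex, against 6.09, 7.21 and 5.41 CPM in day 2 skull, a log2 difference of 3.26 ± 0.15 (adjusted p = 4.24e-07), where the controls had -1.74 ± 0.17. Trem2, a lipid receptor of phagocytes, had 27.9, 44.4 and 35.4 CPM in day 2 cortex, against 19.7, 18.3 and 15.0 CPM in day 2 skull. The microglia median was 1.16 at day 2, against −0.62 in controls, with 8 of 12 genes higher. Cygb, Cyp51, S100a1 and S100a16 were called in opposite directions too, with day 2 differences of 0.39, -0.41, 0.49 and 0.62, against -0.40, 1.34, -0.56 and -0.58 in controls. These genes were chosen after their values were seen.

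Col1a1, Mmp13 and S100a9, of bone and marrow, were lower in cortex at day 2 as in controls. Col1a1 had 32.4, 81.2 and 28.5 CPM in day 2 cortex, against 34210, 31210 and 25730 CPM in day 2 skull, and Mmp13 2.29, 2.86 and 0.991 CPM in day 2 cortex, against 13000, 11240 and 17600 CPM in day 2 skull. The skull level of Mmp13 was far above that of control skull, at 1058, 1339 and 1144 CPM. S100a9 had 30.1, 29.8 and 24.6 CPM in day 2 cortex, against 1029, 1091 and 1107 CPM in day 2 skull, a difference of -5.26 ± 0.14, where the controls had -10.18 ± 0.43. Lcn2, an iron-binding granule protein also made by reactive astrocytes, was not called at day 2, at 121, 281 and 155 CPM in day 2 cortex, against 158, 140.5 and 109.7 CPM in day 2 skull. The 18 replication genes were lower in cortex at day 2 too, with a median of −1.90, against −3.51 in controls. Pvalb was not called at day 2, at 45.2, 50.9 and 67.3 CPM in day 2 cortex, against 3.15, 14.4 and 56.2 CPM in day 2 skull.

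**Figure D5:**
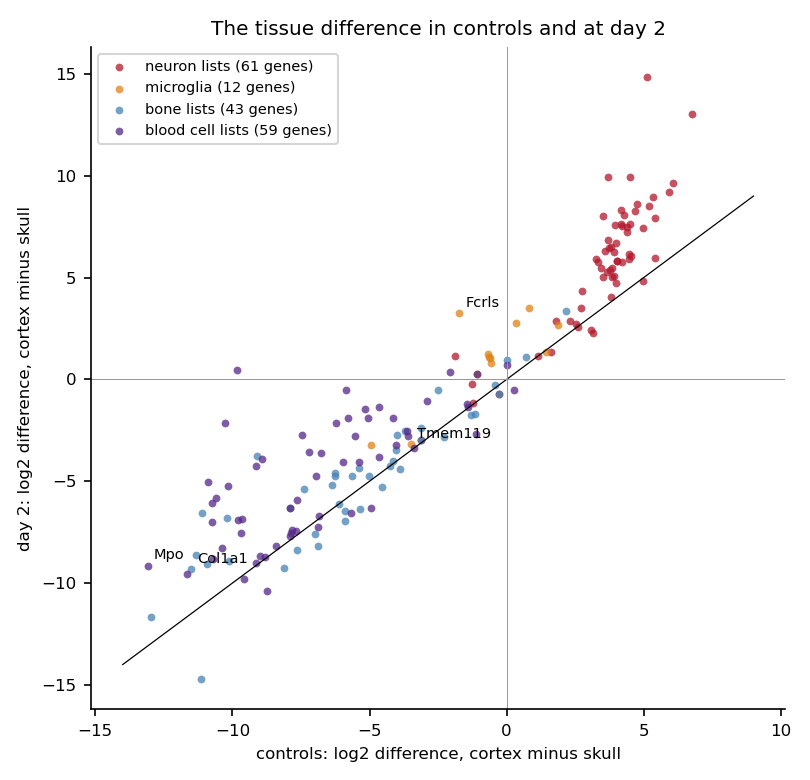
Log2 difference (cortex minus skull) in controls (horizontal axis) and at day 2 (vertical axis) for genes of the neuron, microglia, bone and blood cell lists, with the line of equal differences. Neuron genes lie mostly above the line, and Fcrls stands at 3.26 at day 2, against −1.74 in controls.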

How the data were processed

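RNA of brain cortex and interparietal bone was sequenced, per the labels' protocols, after TRIzol extraction, DNase treatment, poly(A) selection and NEBNext library preparation. HISAT2 2.1.0 and mm10 appear in the submitters' processing notes. Which program, annotation and strand setting counted the reads is not given in the sources used here. In the deposited table the values are raw counts per gene, not normalized by the authors. It has 26783 lines for 25918 gene names, and 865 identical surplus lines of 49 names were removed. No count lay in an unnamed line, and every column matched a sample.

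Counts of the 6 control libraries, 13398631 to 27654269 per library, went through edgeR 4.0.16 under R 4.3.3 with filterByExpr by group, TMM factors, a robust quasi-likelihood fit on group, two-sided tests, and glmTreat for the minimum of 2-fold. Benjamini-Hochberg adjustment ran over all genes tested, and a gene was called below 0.05. Fitted log2 differences used a prior count of 0.125 and are given ± their standard error. A gene with no count in a group was given at a floor of 3 counts over the group. The fit was tested on simulated data in which few genes differed, so that test does not cover a contrast where most genes differ. The day 2 groups were fitted in the same way.

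The comparison, the 51 gene lists (555 genes, 526 in the table, 506 tested) and the 30 pairs were chosen with earlier results of these data known; lists got no test. Genes named were the 10 largest called differences each way with at least 5 CPM and no overlap, leaving out unnamed loci, antigen receptor segments and small RNA genes, and of each list the most abundant, the most different, those against its majority and those not called; of genes at like levels, the 8 with the narrowest interval. Alpl, Sp7, Ibsp, Elane, Prtn3, genes holding RE1, genes opposite at day 2 and the pineal and cerebellar lists, and any other gene outside that rule, were chosen after their values were seen. Positions and exon lengths are from GENCODE M21 on GRCm38 (mm10), matched by name for 25525 genes, and promoters from RefSeq on GRCm38.p6. Alternatives were other scaling factors, filters, thresholds and libraries, DESeq2 1.42.0, limma 3.58.1 voom, a replicate block, thinned libraries and each library left out. Some genes of the lists are not reported here, though they are counted in them.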

Additional observations from a re-analysis of the deposited data

Results flagged for a closer look

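Of 495 genes in the lists, named by size or named for like levels, and tested in both comparisons, 11 stood in opposite directions. In these, all 3 cortex libraries lay on one side of all 3 skull libraries at day 2 and on the other side in controls. The difference between the day 2 and the control contrast was not tested for any of them, CPM were scaled separately in each, and the genes were singled out after their values were seen. That count was not made over all genes. By calls, a different measure, 40 of 6102 genes higher in control cortex and 78 of 6360 lower were called opposite at day 2. Among list genes it was 8 of 440. Of the 11 genes, 9 were higher in cortex at day 2 and lower in controls. Fcrls, Aif1, Trem2 and Csf1r are known in microglia. Fcrls, an Fc receptor-like protein, had a log2 difference of 3.26 at day 2, against -1.74 in controls. Aif1, an actin-binding protein of macrophages, had 1.08 at day 2, against -0.65 in controls. Trem2, the phagocyte lipid receptor, had 1.02 at day 2, against -0.60 in controls. Csf1r, the receptor for macrophage growth factor, had 0.29 at day 2, against -1.08 in controls, and was not called at day 2 (adjusted p = 0.0682). S100a16 and S100a1, calcium-binding proteins, had 0.62 and 0.49 at day 2, against -0.58 and -0.56 in controls. Cygb, the globin of fibroblast-like cells, had 0.39 at day 2, against -0.40 in controls. H2-DMa, a chaperone of antigen loading, had 0.69 at day 2, against -0.21 in controls, where it was not called. Kdm5d, a Y-linked demethylase, had 0.20 at day 2, against -0.15 in controls, and was called in neither.

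The other 2 were lower in cortex at day 2 and higher in controls. Cyp51, a demethylase of sterol synthesis, had -0.41 at day 2, against 1.34 in controls. Eif3h, a translation initiation subunit, had -0.40 at day 2, against 0.04 in controls, where it was not called.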

How the results depend on the processing

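Between control cortex and control skull, 12891 genes were called as reported, 10689 at an adjusted p of 0.01, 12922 with DESeq2, 12929 with limma voom and 13934 with all 18 libraries in one fit. With each library left out in turn the number was 11653 to 12998, lowest without skull library 3. By the 2-fold test it was 7041 as reported, 6386 to 7146 with each library left out, 6092 with DESeq2 and 6221 with limma voom. At day 2 it was 12348 as reported and 11574 to 12250 with each library left out. No called gene was called in the opposite direction by any alternative run. Upper quartile factors moved the median log2 difference of the genes tested to -0.144, against -0.035 as reported, and the share of calls that were higher in cortex to 44.4%, against 48.7%.

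With the replicate number as a block, 12095 genes were called, 6606 by the 2-fold test, and 12022 at day 2. Deviations of same-numbered cortex and skull libraries from their group means had correlations of -0.053, 0.023 and 0.052 in controls and -0.056, 0.064 and 0.093 at day 2. Those of different-numbered libraries were -0.091 to 0.092 in controls and -0.192 to 0.118 at day 2. This cannot show whether libraries share an animal, since 2 unlike tissues need not deviate together. The labels give no pairing, so the numbers were not taken to pair the libraries. 

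Of 380 genes chosen to be named, 316 were called, and 288 of these were called in the same direction under every alternative that tested them. Some of the 288, such as Adipoq and Tagln, were not tested in every alternative. Without skull library 3, 15 lost their call, and without skull library 2, 8 did. With limma voom the muscle genes Ckm, Myh4, Mylk2 and Tnnt3 (adjusted p = 0.107, 0.143, 0.0826 and 0.0587) lost theirs, as did Otx2 (0.292), Tph1 (0.439) and Rxfp1 (0.0679). With all 18 libraries Enpp2, Fos and Ttr lost theirs (adjusted p = 0.0853, 0.0719 and 0.182). Some genes not called as reported were called with a library left out. Without skull library 1 these were Arhgdia, Fosb, Ldha, Neurod1, Nr1d1, Peg10, Sall1 and Slc17a6 (adjusted p = 0.00732 for Nr1d1 to 0.0446 for Arhgdia). Without skull library 2 they included Fgfr3, Jun, Per1, Ptgds, Slc22a6, Slc6a13, Stxbp2 and Tfrc (adjusted p = 0.00144 for Jun to 0.0440 for Tfrc). Without cortex library 1 they were Dlk1, Peg10, Ptgds, Slc22a6, Slc6a13 and Tfrc (adjusted p = 0.0153 for Peg10 to 0.0388 for Ptgds), and without cortex library 3 Krt1 (0.0261) and Ngb (0.0266). The cause was not tested.

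Of 918 counts of list members under the alternatives, 903 were within 1.5 times the reported count. At an adjusted p of 0.01, 3 Schwann cell genes were called lower in cortex, against 5, epidermis genes called higher were 0, against 1, and sex chromosome genes called lower were 1, against 2. That count of sex chromosome genes was also 1 without the filter, and 1 to 2 with each library left out, and the epidermis count was 0 to 2. With all 18 libraries, 0 choroid plexus genes were called higher, against 2. The stricter filter, which tests fewer genes, left 1 ependyma gene called higher, against 2, and 2 genes called lower in each of the lists of eosinophils, basophils and mast cells and of adipocytes, against 5 in each. A list's log2 difference changed sign when the median of log2(CPM + 0.5) replaced the summed CPM, which its most abundant members set. It was 1.463, against -3.01, for ependyma, -4.061, against 0.158, for osteocytes, -2.116, against 0.331, for stem and progenitor cells, 0.592, against -1.507, for epidermis and -0.338, against 1.39, for imprinted genes.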
